A study of Mus musculus with 8 samples.

Results

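Cyclic nucleotide phosphodiesterases hydrolyse the second messengers cAMP and cGMP and so end the signals that adenylyl and guanylyl cyclases start. Family members differ in substrate and in what controls them. The Pde1 enzymes cleave both nucleotides and are switched on by calcium-bound calmodulin, Pde2a is stimulated by cGMP, Pde3 enzymes bind both nucleotides but hydrolyse mainly cAMP, a reaction that cGMP inhibits, Pde4 enzymes are specific for cAMP, Pde5a is specific for cGMP, and Pde10a accepts both. In epithelial and tumor cells, cAMP acts mainly through protein kinase A, the Epac exchange factors and cyclic nucleotide-gated channels.

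The genes described here are Pde1a, Pde1b, Pde1c, Pde2a, Pde3a, Pde3b, Pde4b, Pde4d, Pde5a and Pde10a, 10 of the 23284 gene symbols in the deposited count tables. They were selected by symbol, and the family was picked because Pde1b was close to absent in Control libraries and abundant in Notch3IC libraries. The difference between the conditions in these 10 genes is therefore given as a description, without a p-value.

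RNA-sequencing was performed on 8 libraries of ID8 IP2, a fast-growing subline of the mouse ID8 ovarian surface epithelial cancer cells. In the Notch3IC group (n = 4), cells received a pCCL lentivirus encoding the HA-tagged intracellular domain of Notch3 and, after an IRES, GFP. In the Control group (n = 4), cells received the pCCL vector without an insert, so that GFP as well as Notch3IC differed between the groups. Each of Sets 1 to 4 is a separate infection that gave 1 Control and 1 Notch3IC line. By the study's methods the cells also received a luciferase-mCherry lentivirus, and tests made afterwards pointed to mycoplasma in all ID8 IP2 lines, a background shared by both groups. The cells were cultured lines, and Notch3IC was driven by a viral vector and not from the Notch3 locus. Control libraries held 19013578 to 28208072 counts and Notch3IC libraries 15524262 to 27107061, with the fewest in Notch3IC Set 2.

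The libraries were first checked for the introduced gene. Notch3 was counted 39, 34, 74 and 53 times in Control Sets 1 to 4 and 3864, 319, 10026 and 6915 times in Notch3IC Sets 1 to 4, where reads of the viral insert can be included. The groups did not overlap, and Set 2 had the lowest Notch3IC value. Over the 12430 genes that passed an expression filter, a gene was called at a Benjamini-Hochberg adjusted p under 0.1 if its fitted log2 fold change was also 1 or more in either direction. Notch3 rose by a log2 fold change of 6.69 ± 0.88 (SE, edgeR quasi-likelihood test, adjusted p = 0.0169), and the Notch target genes Hey1, Heyl and Nrarp rose by 7.35, 11.56 and 7.34 at the same adjusted p. Heyl had 2, 0, 2 and 0 counts in Control, so it passed the filter only through Notch3IC libraries and its fitted value depends on the prior count. Within sets, the log2 ratio of Notch3 was 6.79, 3.51, 7.01 and 7.11, so the induction in Set 2 was the smallest of the sets. In RNA from whole cultures, fewer cells with a transcript and less of the transcript per cell cannot be told apart.

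The labelled tissue was examined through marker genes. Of 12 epithelial and mesothelial markers in the files, 10 averaged at least 1 CPM, a count rescaled to a common total of reads, in each group, among them Krt8, Krt18 and Wt1. The epithelial markers Epcam and Krt7 did not. Epcam was counted 5 to 12 times in Control and 2 to 5 times in Notch3IC, and Krt7 2 to 46 and 1 to 2 times. The summed level of the 12 was 1141, 2047, 3167 and 3060 CPM in Control Sets 1 to 4 and 348, 1316, 1125 and 865 CPM in Notch3IC Sets 1 to 4. It was lower in Notch3IC in every set, and the most abundant marker, the uroplakin Upk3b, averaged 935 CPM in Control and 284 CPM in Notch3IC. Upk3b was not called (edgeR adjusted p = 0.22). Of the 12, only the mesothelial markers Msln and Upk1b were called, both lower (log2 fold changes -2.60 and -2.19, edgeR adjusted p = 0.0625 and 0.0762). Smooth muscle and mural markers summed to 1656, 623, 448 and 255 CPM in Control and 3520, 900, 1118 and 779 CPM in Notch3IC, with 5 and 6 of 10 at 1 CPM or more. Acta2, the most abundant (581 and 1370 CPM), was not called (edgeR adjusted p = 0.462). Of the 10, only Cspg4, a pericyte proteoglycan, was called, and it was higher. Fibroblast markers summed to 7403, 5593, 4309 and 3301 CPM in Control and 14287, 6750, 8333 and 10202 CPM in Notch3IC, with 5 of 7 at 1 CPM or more in each group. Col1a1, the most abundant (3773 and 7585 CPM), was not called (edgeR adjusted p = 0.166). Of the 7, only Pdpn was called, and it was lower. Endothelial markers reached 1 CPM in 1 of 7 cases, Esam, which was called lower (40.9 and 13.1 CPM). Leukocyte markers summed to at most 9.07 CPM in any library, with Cd14 the most abundant (4.11 and 2.69 CPM), Csf1r called higher, and Emr1 and Cd3e at 0. Csf1r was counted 9, 10, 7 and 9 times in Control and 36, 10, 22 and 28 times in Notch3IC. It met the filter only through its Notch3IC libraries. Neural markers reached 1 CPM in 1 of 8 cases, Tubb3 (39.3 and 44.8 CPM), and Rbfox3 and Gfap were at 0. Of all genes tested, 3.4% were called higher and 0.74% lower. Whether a marker list shifted as a whole was not tested, nor was the part of these marker differences in the values below.

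Pde1b, a calmodulin-dependent enzyme best known from brain and myeloid cells, lies at chr15:103503034-103530052 on the plus strand of GRCm38, in 14 exon blocks that no other annotated gene overlaps. Sequences of its annotated starts are shown because the family was picked on this gene. Each window is taken from RefSeq (GRCm38.p6), runs 5′ to 3′ on the gene's strand from 250 bases before an annotated start to 50 bases after it, and carries in capitals any TGGGAA, the core letters bound by the Notch effector Rbpj, read on both strands (TTCCCA on the other strand). The first window belongs to the start at the 5′ end of the gene and the others to starts inside it. The gene counts do not tell which start was used. For comparison, the Pde1a and Pde2a windows that hold these letters are given below the Pde1b windows. Each belongs to a start inside its gene. The other Pde1a and Pde2a windows do not hold the letters and are not shown.
Pde1b, chr15:103502784-103503083, plus strand: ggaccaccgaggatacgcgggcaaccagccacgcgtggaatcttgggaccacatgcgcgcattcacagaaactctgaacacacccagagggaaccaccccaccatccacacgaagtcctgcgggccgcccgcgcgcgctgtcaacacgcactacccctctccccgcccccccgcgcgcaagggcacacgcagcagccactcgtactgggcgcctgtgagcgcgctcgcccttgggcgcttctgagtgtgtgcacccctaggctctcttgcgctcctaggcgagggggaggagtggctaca
Pde1b, chr15:103506876-103507175, plus strand: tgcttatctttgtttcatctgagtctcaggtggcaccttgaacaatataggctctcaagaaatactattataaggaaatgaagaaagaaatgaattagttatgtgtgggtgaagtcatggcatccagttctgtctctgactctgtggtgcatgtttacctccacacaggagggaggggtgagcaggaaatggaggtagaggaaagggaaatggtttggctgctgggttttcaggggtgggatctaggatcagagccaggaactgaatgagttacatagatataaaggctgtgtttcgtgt
Pde1b, chr15:103514727-103515026, plus strand: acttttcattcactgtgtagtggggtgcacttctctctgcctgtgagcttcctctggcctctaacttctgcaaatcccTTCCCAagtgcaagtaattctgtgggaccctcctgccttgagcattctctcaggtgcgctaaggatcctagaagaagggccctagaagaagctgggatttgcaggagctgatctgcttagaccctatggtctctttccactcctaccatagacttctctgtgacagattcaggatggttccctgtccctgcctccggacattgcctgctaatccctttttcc
Pde1a, chr2:79908350-79908649, minus strand: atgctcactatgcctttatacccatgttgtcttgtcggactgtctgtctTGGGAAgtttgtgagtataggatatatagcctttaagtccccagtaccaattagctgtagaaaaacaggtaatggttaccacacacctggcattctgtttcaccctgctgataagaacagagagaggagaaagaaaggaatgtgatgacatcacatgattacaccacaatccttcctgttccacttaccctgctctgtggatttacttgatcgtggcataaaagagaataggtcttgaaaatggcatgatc
Pde2a, chr7:101450270-101450569, plus strand: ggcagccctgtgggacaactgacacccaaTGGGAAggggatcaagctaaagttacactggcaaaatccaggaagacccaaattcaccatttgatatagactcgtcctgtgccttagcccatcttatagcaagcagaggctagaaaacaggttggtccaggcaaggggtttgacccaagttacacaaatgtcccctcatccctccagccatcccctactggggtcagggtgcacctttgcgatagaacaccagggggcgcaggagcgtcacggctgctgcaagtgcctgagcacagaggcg

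TGGGAA or its reverse complement began 172 bases before the innermost Pde1b start, 201 bases before the Pde1a start shown and 221 bases before the Pde2a start shown. Of 23 windows of 8 of the genes, 8 windows in 6 genes held these letters, beside 25.6% of all 32851 windows of that length. The 6 include Pde1c, which had no reads, and Pde4b and Pde5a, whose groups overlapped in level. The E-box CACGTG and the cAMP response element TGACGTCA were in none of the 23 windows, against 7.15% and 1.79% of all windows. A match describes the sequence and is not evidence of binding.

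Pde1b was counted 3, 0, 1 and 1 times in Control Sets 1 to 4 and 969, 85, 1101 and 1369 times in Notch3IC Sets 1 to 4. All Notch3IC libraries were far above all Control libraries, and Set 2 stood well below the other 3 Notch3IC libraries. On the scale of normalized counts (read counts put on a common depth by TMM scaling) the Control level was 1.18 ± 1.27 and the Notch3IC level 844 ± 483 (SD, n = 4 each). Summed over each group, 5 against 3524 counts gave a 761-fold ratio with an exact 95% interval of 326 to 2344, which covers counting error only. By set, the ratio was 364-fold (124 to 1770) in Set 1, at least 34.8-fold in Set 2 (with the 0 of the Control library set to a floor of 3 counts), 1058-fold (189 to 41819) in Set 3 and 1459-fold (261 to 57661) in Set 4. The wide intervals come from the 0 to 3 Control counts, so the sets cannot be ranked from these ratios alone. The fitted log2 fold change was 9.31 ± 0.97 (SE), a value that depends on the prior count added to the Control libraries.

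**Figure D1:**
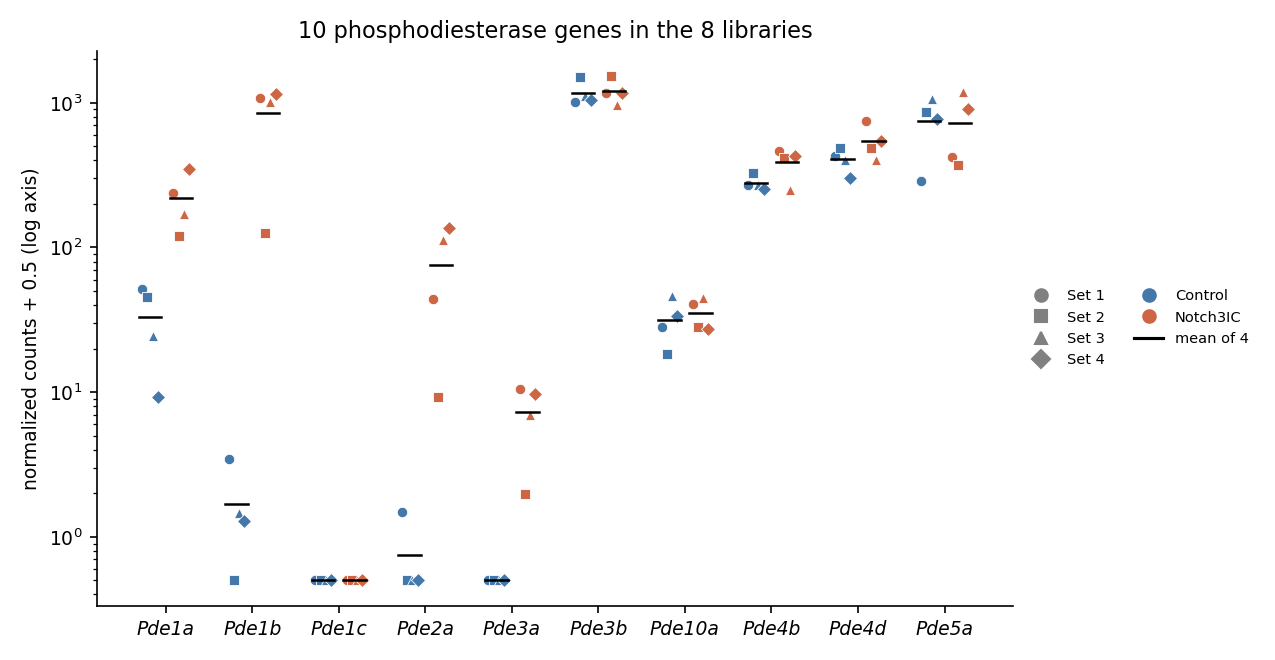
Normalized counts plus 0.5 (log axis) of the 10 phosphodiesterase genes in each library. Symbols mark Sets 1 to 4, colors the 2 conditions and black bars the mean of 4 libraries. Pde1a, Pde1b, Pde2a and Pde3a separate by condition, the 5 genes at the right overlap, and Pde1c is at 0 throughout.

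Pde1a, the second calmodulin-dependent enzyme (chr2:79834453-80129458, minus strand), was already present in Control. It was counted 52, 38, 25 and 11 times in Control and 211, 81, 185 and 415 times in Notch3IC. Every Notch3IC library exceeded every Control library, and Control Set 4 was the lowest and Notch3IC Set 4 the highest of all. Normalized counts were 32.4 ± 19.7 in Control and 219 ± 100 in Notch3IC (SD, n = 4 each), a log2 fold change of 2.77 ± 0.55 (SE). The log2 ratio within sets ran from 1.38 in Set 2 to 5.27 in Set 4. Without Control Set 3 or without Notch3IC Set 4, Pde1a no longer met the calling thresholds, with log2 fold changes of 2.65 and 2.45. Pde1c, the third calmodulin-dependent gene, had no count in any library, which allows a level of up to 0.0161 CPM over the 186689224 counts read.

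Pde2a, the cGMP-stimulated enzyme (chr7:101421691-101512827, plus strand), was counted 1, 0, 0 and 0 times in Control and 39, 6, 123 and 161 times in Notch3IC. Again no library of one group reached the other, and Set 2 was the lowest Notch3IC library. The pooled counts of 1 and 329 gave a 355-fold ratio (exact 95% interval 63.3 to 14066, counting error only). In the GENCODE annotation 64.3% of the Pde2a exon bases are shared with Gm45837 on the same strand, so reads there cannot be given to one of the pair with certainty. Gm45837 is not among the 23284 symbols with deposited counts, so its level could not be read here. Its reads may be part of the Pde2a counts.

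Pde3a, a cGMP-inhibited cAMP hydrolase known from heart and oocytes, was counted 0 times in all 4 Control libraries and 9, 1, 7 and 11 times in Notch3IC. The Notch3IC group total of 28 was at least 10.1-fold higher than a floor of 3 counts over the Control group, and the Control count of 0 allows a level of up to 0.0313 CPM. Neither Pde2a nor Pde3a passed the expression filter, so they were not among the 12430 genes fitted. Pde2a had 6 counts in Notch3IC Set 2 and was tested and called higher when that library was left out. It was also called without Control Set 1, 2 or 4 or without both libraries of Set 2. In each case it met the filter only through Notch3IC libraries. Pde3b, the paralog of Pde3a and the form of adipocytes and liver, was in contrast among the most abundant of the 10 genes. Pde3b was counted 1016, 1265, 1163 and 1319 times in Control and 1038, 1046, 1052 and 1392 times in Notch3IC. The groups overlapped, with normalized counts of 1168 ± 231 and 1209 ± 235 (SD, n = 4 each) and a log2 fold change of 0.05 ± 0.18 (SE).

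The cAMP-specific genes Pde4b and Pde4d, targets of anti-inflammatory inhibitors, differed by less than 1 on the log2 scale. Pde4b was counted 273, 272, 282 and 317 times in Control and 413, 282, 269 and 508 times in Notch3IC, a log2 fold change of 0.47 ± 0.20 (SE). Pde4d was counted 434, 411, 419 and 382 times in Control and 674, 330, 437 and 648 times in Notch3IC, a log2 fold change of 0.43 ± 0.22 (SE). For both genes the groups overlapped, and Sets 1 and 4 had the larger log2 ratios (0.77 and 0.77 for Pde4b, 0.81 and 0.85 for Pde4d), while Sets 2 and 3 lay between -0.13 and 0.35.

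Pde5a, the cGMP-specific enzyme that sildenafil inhibits, varied more between sets than between conditions. It was counted 290, 729, 1107 and 981 times in Control and 375, 254, 1300 and 1077 times in Notch3IC. Set 1 was low in both conditions, and Set 2 was the only set in which the Notch3IC library was lower (log2 ratio -1.22 against 0.17 to 0.54 in the others). The fitted log2 fold change was -0.04 ± 0.47 (SE). Pde10a, a dual-substrate enzyme known from striatal neurons, was sparse in both groups, with 28, 15, 48 and 42 counts in Control and 36, 19, 48 and 32 in Notch3IC. These ranges overlapped, and the log2 fold change was 0.15 ± 0.33 (SE).

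**Figure D2:**
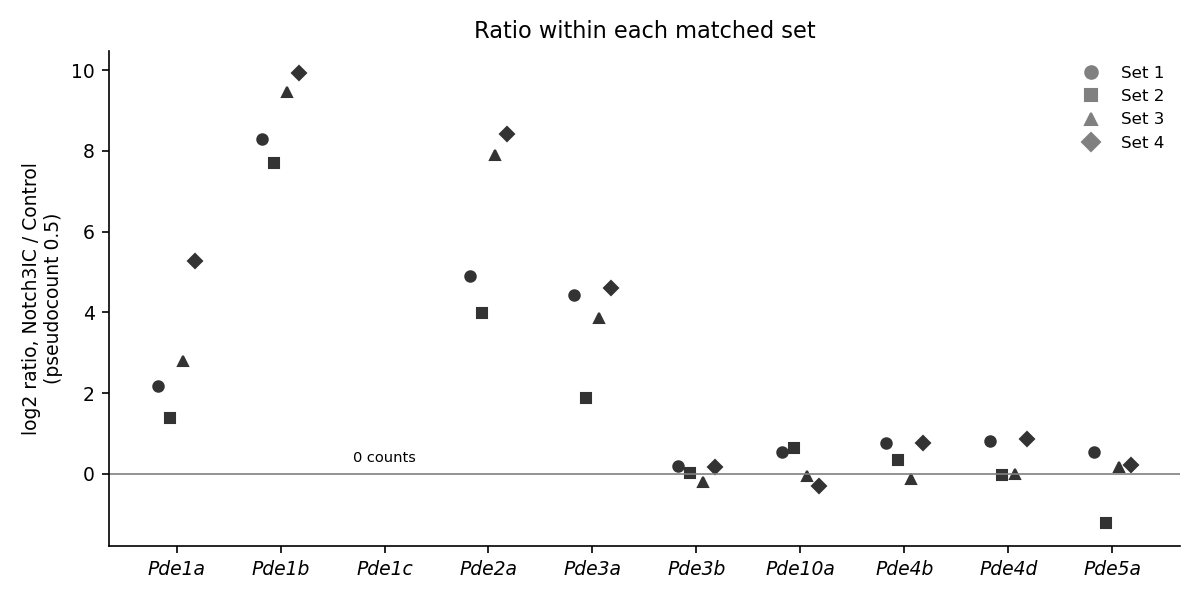
Log2 ratio of Notch3IC to Control within Sets 1 to 4 for each gene, from counts plus a pseudocount of 0.5 over the TMM-scaled library size. Pde1b lies between 7.71 and 9.93 and Pde1a between 1.38 and 5.27 in every set, while Pde3b lies between -0.20 and 0.20. The points of Pde1b in Set 2, Pde2a in Sets 2 to 4 and Pde3a in all sets rest on a Control count of 0. The other Pde1b and Pde2a points rest on 1 to 3 Control counts. The height of all these points depends on the pseudocount. Pde1c has no counts.

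Of the 10 genes, 7 passed the expression filter, and Pde1b passed it only through its Notch3IC libraries. Pde1a and Pde1b, 2 of the 7, were called higher, where 3.4% of the 12430 genes tested were called higher. None was called lower by edgeR or by DESeq2, where edgeR called 0.74% of all genes lower, and the single negative log2 fold change was that of Pde5a. Among the 7 tested, the same 2 genes were the ones whose groups did not overlap, beside 7.08% of all genes with Notch3IC libraries higher throughout and 3.75% with Notch3IC libraries lower throughout. The family having been chosen on this contrast, nothing is read from these counts. With DESeq2 or without the expression filter, Pde2a and Pde3a were also called higher, giving 4 genes. Over all genes, 708 were called higher with DESeq2 and 543 without the filter, against 423 in the main fit. Without the libraries of Set 3, or without those of Set 4, no member was called, while Pde1b kept log2 fold changes of 8.94 to 10.12 whichever library or set was left out. Over all genes, 1 was called higher without Set 3 and 0 without Set 4.

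Levels of different genes were compared as normalized counts per kilobase of exon. In Control the order of mean levels was Pde3b (128 ± 25.4), Pde5a (76.1 ± 33.5), Pde4d (33.8 ± 6.52), Pde4b (26.4 ± 2.996), Pde1a (5.38 ± 3.28), Pde10a (2.43 ± 0.910), Pde1b (0.219 ± 0.235) and Pde2a (0.0403 ± 0.0806), with Pde1c and Pde3a at 0 (SD, n = 4). Among these neighbors, Pde5a, Pde4d and Pde4b overlapped in sequence, as did Pde1a with Pde10a and Pde1b with Pde2a, whereas Pde3b lay above Pde5a in range, Pde4b above Pde1a, and Pde10a above Pde1b. In Notch3IC, Pde1b had the highest mean level at 156 ± 89.5 per kilobase, next to Pde3b at 133 ± 25.8, and the ranges of the pair overlapped (23.1 to 214 and 106 to 168). Pde5a (73.6 ± 40.4), Pde4d (45.5 ± 12.5), Pde4b (36.7 ± 9.07) and Pde1a (36.4 ± 16.6) followed with overlapping ranges, then Pde2a (12.3 ± 9.64), Pde10a (2.71 ± 0.675) and Pde3a (0.535 ± 0.305). The Pde5a range also reached that of Pde3b, the Pde2a range (1.43 to 22.1) overlapped those of Pde1a and Pde10a, and Pde10a lay above Pde3a in every library. Pde1b thus stood seventh by mean in Control and first in Notch3IC, although its Notch3IC range overlapped those of Pde5a, Pde4d, Pde4b and Pde1a too, and in Set 2 it was below Pde3b, Pde4d, Pde4b and Pde5a.

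The make-up of the family was then described over 21 genes for catalytic phosphodiesterases. Their summed level per kilobase was 376, 512, 495 and 431 in Control Sets 1 to 4 and 743, 508, 750 and 871 in Notch3IC Sets 1 to 4. Sets 1, 3 and 4 were higher in Notch3IC, and Set 2 was not. Pde1b held 0.146, 0, 0.0358 and 0.034% of the sum in Control and 27.0, 4.54, 25.0 and 24.6% in Notch3IC. Genes for enzymes that cleave both nucleotides held 30.1 ± 3.78% in Control and 47.0 ± 3.80% in Notch3IC (SD, n = 4) when the Pde3 genes were counted with them, those for cAMP-specific enzymes 53.6 ± 4.66% and 40.7 ± 6.75%, and those for cGMP-specific enzymes 16.4 ± 5.97% and 12.3 ± 5.86%. Most of the Control share of the first class was Pde3b. Without Pde3a and Pde3b the class held 1.84 ± 0.871% in Control and 27.1 ± 12.1% in Notch3IC, where Set 2 was the lowest at 9.13%. Shares sum to a fixed total, so a larger Pde1b share lowers the sum of the others. By group means, Pde3b moved from 28.2% to 19.8% of the sum while its own level differed by 0.05 on the log2 scale. In Set 2, where Pde1b took the smallest share, Pde3b held 32.3% in Control and 33.1% in Notch3IC and the cAMP-specific genes 48.6% and 49.4%, so neither share was lower there.

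**Figure D3:**
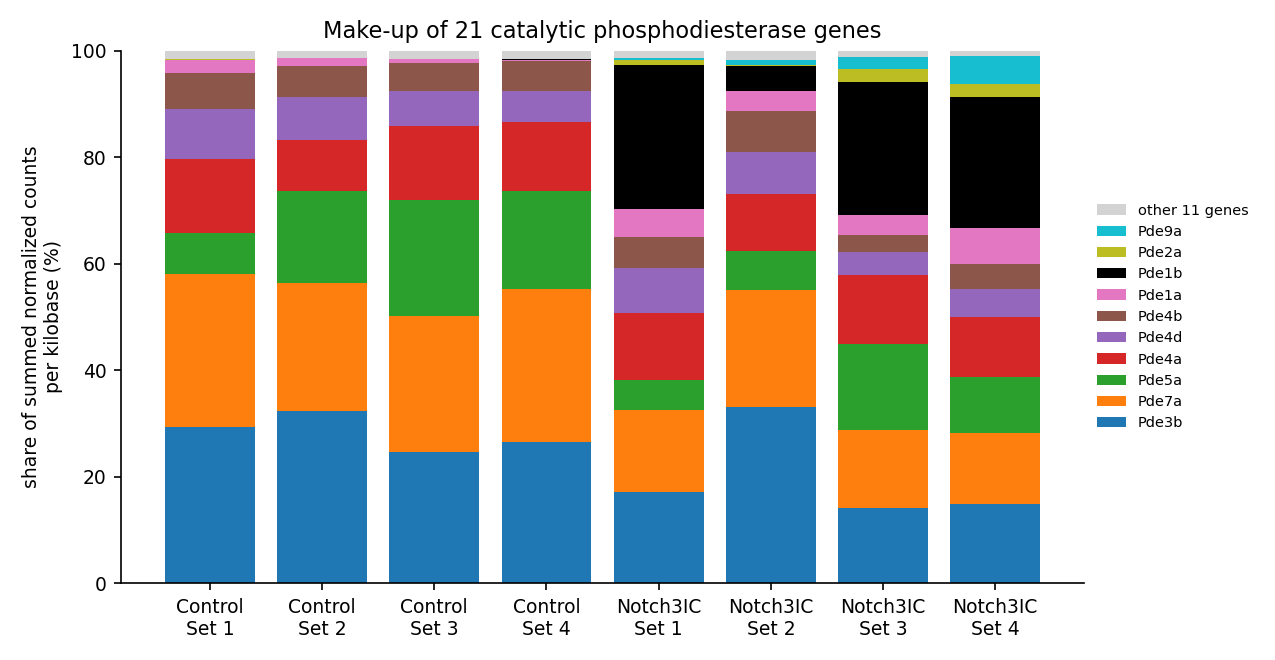
Share (%) of each gene in the summed normalized counts per kilobase of 21 catalytic phosphodiesterase genes, 1 stacked bar per library, with the 10 genes of the legend drawn singly (Pde4a, Pde7a and Pde9a among them) and the other 11 pooled in light grey. Pde1b (black) is under 0.15% in the Control bars and takes 27.0, 4.54, 25.0 and 24.6% in the Notch3IC bars of Sets 1 to 4.

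The rest of the pathway was examined in 137 genes listed by role in 9 groups, of which 82 were tested and 10 had no count at all. Of the 82, 7 were called higher (8.54%, against 3.4% of all genes tested) and none lower (against 0.74%). The 7 include Pde9a and Gnao1, which passed the expression filter only through their Notch3IC libraries and so could be called in that direction alone. Without any filter all 7 were called, and 5 were called among genes with at least 10 counts in every library. By edgeR 27 of the 82 had an unadjusted p under 0.05, of which 3 were lower, Adcy9, Akap1 and Nr4a2, and DESeq2 called none lower. Of all genes tested, 18.4% had an unadjusted p under 0.05 in either direction. The median log2 fold change of the 82 was 0.26, beside -0.01 for all 12430 genes. With the set as a block, 12 genes were called higher and 3 lower (Akap5, Npr1 and Ptger3), beside 645 and 315 of all genes. The 12 include Camk2a, which also passed the filter only through its Notch3IC libraries. The count depended on single libraries: no gene was called without Control Set 3, 1 without Control Set 4, 4 without Notch3IC Set 3, 3 without Notch3IC Set 4 and 13 without Notch3IC Set 2, and none was called without either library of Set 3 or of Set 4. Over all genes, the 423 higher calls moved too, to 75, 99, 201, 155 and 702 for these single libraries in the same order. Without Set 3 and Set 4 they numbered 1 and 0.

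Among the 14 other phosphodiesterase genes, 5 were tested and 1 was called higher. Pde9a, the high-affinity cGMP-specific enzyme, was counted 2, 0, 0 and 0 times in Control and 10, 11, 64 and 190 times in Notch3IC. Its libraries did not overlap, and Set 4 was the highest Notch3IC library, as for Pde1b, while the lowest were Set 1 by normalized counts and Set 2 next to it. The pooled ratio was 148-fold (exact 95% interval 40.7 to 1231, counting error only), and the edgeR test gave an adjusted p of 0.0366 (range over the alternatives 2.24e-05 to 0.303). Its fitted log2 fold change of 6.68 ran from 5.16 to 9.34 when a library or a set was left out. Like Pde1b, it passed the filter only through the Notch3IC libraries, and it was also called with no filter. The most abundant of this group were Pde6d, a prenyl-binding protein that is not itself catalytic (log2 fold change 0.36, adjusted p = 0.378), and the cAMP-specific Pde7a (-0.10, adjusted p = 0.602). Pde4c and Pde7b had no count in any library.

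Among enzymes that make the nucleotides, none of 5 tested adenylyl cyclases passed the test with edgeR or DESeq2. Adcy9 alone had an unadjusted p under 0.05, beside 18.4% of all genes tested. The most abundant were Adcy6 (log2 fold change 0.27, adjusted p = 0.39) and Adcy7 (0.15, adjusted p = 0.748). Of 4 tested genes for guanylyl cyclases, natriuretic peptide receptors and nitric oxide synthases, 1 rose. Npr2, the guanylyl cyclase receptor for C-type natriuretic peptide, was counted 127, 71, 85 and 107 times in Control and 220, 111, 297 and 417 times in Notch3IC. On the normalized scale its groups did not overlap, at 94.2 ± 21.2 and 258 ± 78.2 (SD, n = 4 each), with a log2 fold change of 1.46 ± 0.26 (SE, edgeR adjusted p = 0.029, range over the alternatives 1.37e-05 to 0.319). The 2 most abundant genes of the group, Gucy1a3 and Npr1, spread widely within each group. Gucy1a3, a subunit of the nitric oxide receptor, was counted 25, 96, 484 and 433 times in Control and 691, 53, 3903 and 2912 times in Notch3IC (log2 fold change 2.86 ± 1.12, SE, adjusted p = 0.215). Set 2 was the only set in which it was lower in Notch3IC, and with the set as a block it was called higher. Npr1, the receptor of atrial natriuretic peptide, was lower in Notch3IC in every set, with a log2 fold change of -1.25 and an adjusted p of 0.557, and it was called lower with the block.

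Upstream of the adenylyl cyclases, 2 of 11 tested genes for G proteins and receptors were called higher. Ptger4, the prostaglandin E2 receptor EP4, which raises cAMP, was counted 208, 182, 175 and 189 times in Control and 1042, 223, 1533 and 1407 times in Notch3IC. The Control libraries lay close together, and Notch3IC Set 2 was nearest to them. The log2 fold change was 2.47 ± 0.41 (SE, edgeR adjusted p = 0.0247, range over the alternatives 6.97e-08 to 0.301). Gnao1, a G protein alpha subunit of the inhibitory class, was counted 8, 4, 8 and 2 times in Control and 31, 16, 28 and 40 times in Notch3IC, a log2 fold change of 2.42 ± 0.44 (SE, adjusted p = 0.0298, range over the alternatives 8.04e-05 to 0.246). Gnao1, like Pde9a, passed the expression filter only through its Notch3IC libraries, and it was also called with no filter. With the set as a block, the receptors Adora2b (log2 fold change 1.83 ± 0.44, SE) and Adrb1 (1.27 ± 0.37, SE), which raise cAMP, were also called higher, and the prostaglandin receptor Ptger3, which lowers it, was called lower (-2.52 ± 0.40, SE). The far more abundant inhibitory subunits Gnai3 and Gnai2 had log2 fold changes of 0.14 and 0.15 (adjusted p = 0.521 and 0.494).

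Downstream, none of 7 tested genes for protein kinase A subunits and inhibitors passed the test with edgeR or DESeq2, although 4 were higher at an unadjusted p under 0.05. Of all genes tested, 18.4% had such a p in either direction. When libraries were left out, the regulatory subunit Prkar2b was called higher without Control Set 1, without both libraries of Set 1 or without Notch3IC Set 2, and the inhibitor Pkig without Notch3IC Set 2. The catalytic subunit Prkaca had a log2 fold change of -0.07 (adjusted p = 0.744) and the regulatory subunit Prkar1a 0.54 (adjusted p = 0.121). Of 5 other cyclic nucleotide effectors, Hcn2, a channel opened by hyperpolarization and modulated by cAMP, rose from 43.6 ± 9.37 to 122 ± 53.7 normalized counts (SD, n = 4 each), a log2 fold change of 1.48 ± 0.35 (SE, edgeR adjusted p = 0.059, range over the alternatives 0.00159 to 0.453). The abundant effectors Prkg2, a cGMP-dependent kinase, and Rapgef3, also called Epac1, had log2 fold changes of -0.13 and -0.49 (adjusted p = 0.64 and 0.513). None of 12 A-kinase anchoring proteins passed with condition alone in edgeR or with DESeq2, with 2 higher and 1 lower at an unadjusted p under 0.05, and the most abundant, Akap2 and Akap1, had log2 fold changes of 0.34 and -0.33 (adjusted p = 0.15 and 0.238). With the set as a block, the scaffold Akap12 was called higher (log2 fold change 1.17 ± 0.24, SE) and Akap5 lower (-1.42 ± 0.31, SE). With condition alone both were called in these directions without Notch3IC Set 2, and Akap5 also without both libraries of Set 2.

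Calmodulin, the activator of the Pde1 enzymes, and its calcium-dependent targets comprised 15 tested genes, none called with condition alone in edgeR or with DESeq2, and with 5 higher at an unadjusted p under 0.05. In either direction, 18.4% of all genes tested had such a p. With the set as a block, the kinase Camk2a was called higher (log2 fold change 2.22 ± 0.68, SE), from 3, 10, 2 and 0 counts in Control and 11, 16, 11 and 24 in Notch3IC, so that it too met the filter only through Notch3IC libraries. With condition alone it was called without Control Set 2 or without both libraries of Set 2. Calm2 and Calm3, the most abundant calmodulin genes, had levels of 7213 ± 765 and 2525 ± 176 normalized counts per kilobase in Control and 6207 ± 830 and 2541 ± 205 in Notch3IC (SD, n = 4), with adjusted p = 0.416 and 0.976. Among 18 tested cAMP-responsive transcription genes, 2 rose. Creb3l1, a membrane-bound transcription factor of the endoplasmic reticulum, rose by 1.36 ± 0.29 on the log2 scale (SE, edgeR adjusted p = 0.0444, range over the alternatives 0.000173 to 0.369), and Dusp1, a phosphatase of MAP kinases, by 1.24 ± 0.30 (SE, adjusted p = 0.0623, range over the alternatives 0.00212 to 0.418). The list holds CREB factors and coactivators as well as known cAMP-induced genes, so a rise in it does not by itself measure cAMP. Creb3l1 was listed with the factors, and Dusp1 is also controlled by other signals. The abundant early gene Junb had a log2 fold change of -0.25 (adjusted p = 0.745). Named after their values were seen, Camk2d, Camk2g, Crtc3 and Sik1 passed the adjusted p with log2 fold changes of 0.26 to 0.72, below the fold limit.

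**Figure D4:**
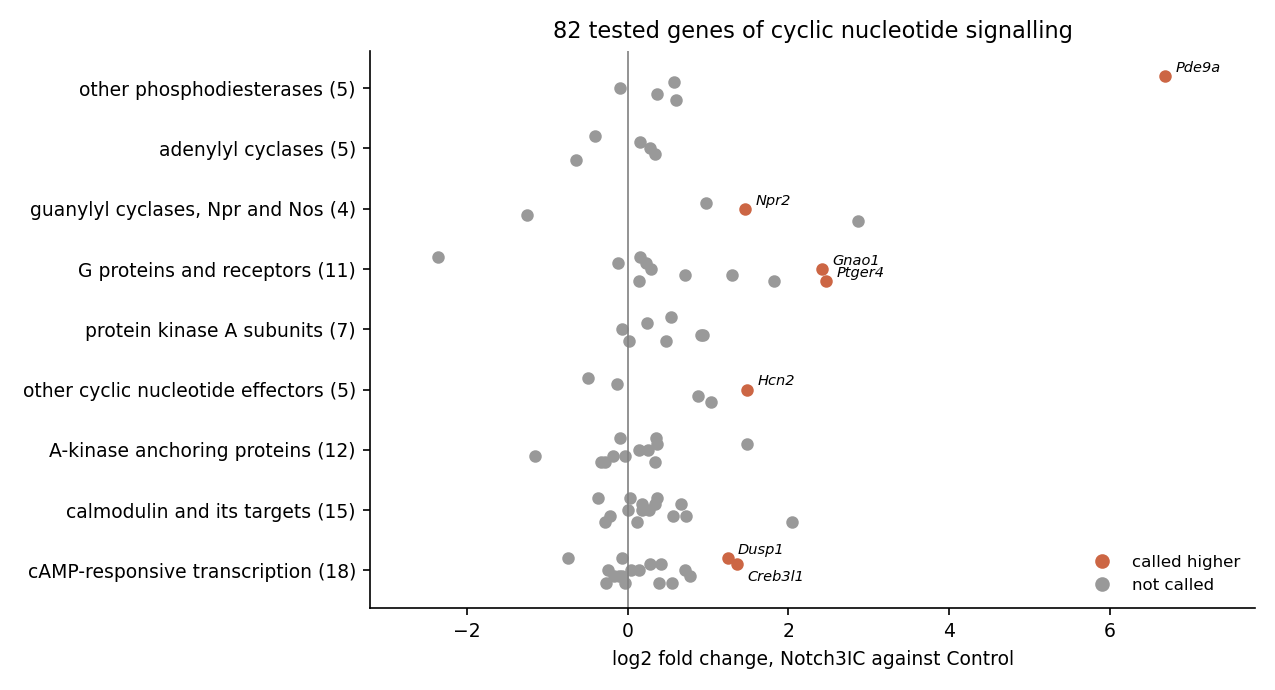
Log2 fold change, Notch3IC against Control, of 82 tested pathway genes in 9 groups, with the number tested in parentheses and 1 point per gene. The 7 called genes (orange, named) lie between 1.24 and 6.68, and no gene on the lower side is called.

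The profile most like that of Pde1b was sought among 10800 tested genes with at least 50 counts in at least 3 Notch3IC libraries, by Pearson's r of log2(CPM + 0.5) over the 8 libraries. The closest were Cdh15 (M-cadherin, r = 0.999), Notch1 (0.997), Col15a1 (0.996), 4833422C13Rik (0.996) and Gpr30 (0.995). Cdh15 was counted 2, 0, 1 and 1 times in Control and 2296, 140, 3502 and 3584 times in Notch3IC, again with Set 2 far below the rest. Heyl stood seventh (0.993), Notch3 ninth (0.991) and Pde1a at rank 336 (0.925). The points share their libraries and fall into the 2 conditions, so that any gene with a large difference between them scores high, and 178 genes reached 0.95. By Spearman's rank correlation 1 of the 5, Col15a1, stayed among the 5 closest, at rank 4.

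**Figure D5:**
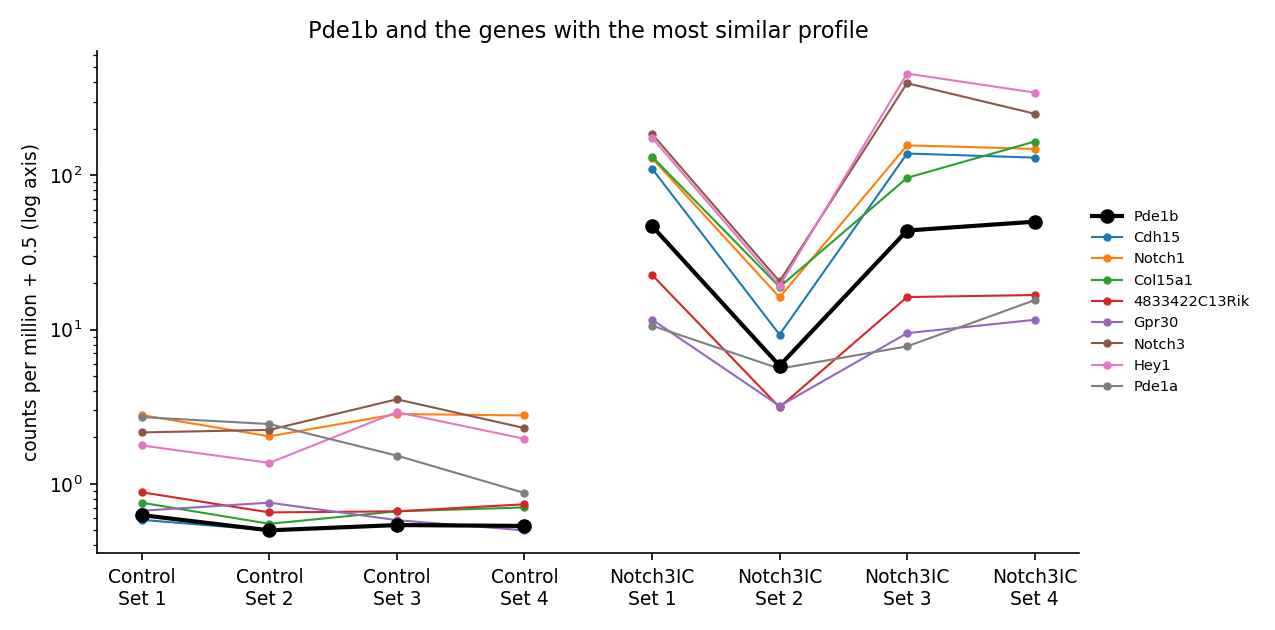
CPM plus 0.5 (log axis) in the 8 libraries for Pde1b (black), the 5 genes with the highest Pearson r to it, and Notch3, Hey1 and Pde1a. Lines only join the libraries of a gene within a condition. Every gene drawn is higher in all Notch3IC libraries than in all Control libraries and has its lowest Notch3IC value in Set 2.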

How the data were processed

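Polyadenylated RNA of 8 libraries was sequenced as single-end reads. The submitters' processing notes name TopHat, Cufflinks, DESeq and mm9, and the annotation and strandedness are not given in the sources used here. The authors deposited raw counts per gene symbol, 1 table per library, without normalization. Of 23284 symbols, 17359 had a count. Positions and exon lengths were taken from GENCODE M21 (GRCm38), which held 20882 symbols by name and 1922 by synonym.

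Counts were fitted in edgeR 4.0.16 (R 4.3.3) with TMM scaling, filterByExpr by condition, a robust quasi-likelihood fit and condition as the single term, with p-values adjusted by Benjamini-Hochberg over all 12430 genes tested. The thresholds are those of the study. Normalized counts are counts over the TMM-scaled library size, times the mean library total. A ratio within a set uses a pseudocount of 0.5. Ratios of pooled counts have exact 95% binomial intervals, and a 0 allows up to 3 counts. Both cover counting error only. DESeq2 1.42.0, other scalings, filters, thresholds, the set as a block and the removal of each library or set were run as alternatives. The fit was tested on simulated data.

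The sets pair the libraries by design, since each is 1 infection experiment with a matched Control. Deviations from the group means correlated within Sets 1 to 4 at 0.80, 0.40, 0.57 and 0.41, against -0.50 to 0.37 for crossed pairs. The study's methods name no set term, so the block is an alternative.

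The members and gene lists were chosen with earlier results of these data known. Named genes are the 10 members, the called genes and the 2 most abundant genes per kilobase of each pathway list, 4 Notch genes and the 5 genes most like Pde1b. Genes named beyond these (markers, genes whose call an alternative changed, genes listed for a small count or for 0 counts, and the sparse genes of the closing section) were chosen after their values were seen, except the marker lists. RefSeq windows matched 8 members, and Pde3a and Pde3b had none. Protein sequences were not used here. P-values measure the spread between independently infected lines of 1 cell line.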

Additional observations from a re-analysis of the deposited data

Results flagged for a closer look

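In 41 groups of 4 libraries of the genes named here, with a mean of at least 10 normalized counts, 4 had a library far from the other 3 by Dixon's ratio at the 95% level, where about 1 in 20 would by chance, or 2.05 groups. Pde1b in Notch3IC Set 2 was at 124.5 normalized counts, beside 1012 to 1156 in the other Notch3IC libraries. Npr2, the receptor of C-type natriuretic peptide, was at 125.8 in Control Set 1, beside 81.31 to 84.78 in the other Control libraries. Notch3 was at 70.79 in Control Set 3, beside 38.65 to 41.99. Notch1 was at 35.79 in Control Set 2, beside 53.09 to 54.52.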

How the results depend on the processing

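Pde1b was higher under all alternatives run, with log2 fold changes of 9.27 to 9.44 under other scalings, filters that keep it and tools, and 9.39 with the replicate block. The block did change counts of calls: over all genes 645 were called higher and 315 lower, of which 418 and 90 are among the 423 and 92 of the fit without it. With DESeq2 708 and 192 were called. An adjusted p under 0.05 left 48 lower, and no fold limit gave 210 lower. The share of higher calls was 82.1%, 81.7% with RLE scaling and 82.8% with library totals, but 67.2% with the block, 69.7% without Notch3IC Set 2, 72.5% without Set 1, and 90.4% and 90.6% without Control Set 3 and Notch3IC Set 4. Of the pathway genes, 7 were called higher, 12 with the block, 13 with DESeq2 and 11 with no fold limit, and 0 were called lower, 3 with the block. Of the phosphodiesterase members, 2 were called higher, also with the block, 4 with DESeq2 or without an expression filter, and 1 with at least 10 counts in every library, which Pde1b cannot meet. Leaving out 1 library or 1 set gave 0 to 702 higher and 0 to 305 lower calls over all genes, 0 to 13 higher and 0 to 1 lower pathway genes, and 0 to 3 higher and 0 lower members. Over all genes, higher calls numbered 75 without Control Set 3, 99 without Control Set 4, 702, 201 and 155 without Notch3IC Sets 2, 3 and 4, 670 without Set 2, 1 without Set 3 and 0 without Set 4. The cause was not tested. A pseudocount of 5 in place of 0.5 put the Pde1b log2 ratios within Sets 1 to 4 at 7.10, 4.47, 7.47 and 7.93.

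The main limits are the near absence of Control counts for Pde1b, Pde2a, Pde3a and Pde9a, which bounds how well their ratios are known, and the 4 libraries in each group. The biological coefficient of variation was 26.3% with condition alone and 14.1% with the block. A gene that missed the threshold is not shown to be unchanged. Reads of genes that overlap on the same strand, as Pde2a and Gm45837, cannot be separated by symbol counts, and Gm45837 is not among the symbols counted.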

Other observations

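Several pathway genes were too sparse for the expression filter and so were outside the edgeR fit with condition alone that gave the counts above. Prkg1, Vipr1, Adora2a and Gucy2g were among the 13 genes DESeq2 called higher, and Prkg1 and Vipr1 were also called in edgeR with no filter. They are named after their values were seen, as the 4 with the most Notch3IC counts among those with at most 3 counts in each Control library, at least 10 in all Notch3IC libraries together and more there than in Control, so their direction is fixed by the choice. Prkg1, a cGMP-dependent kinase of smooth muscle, was counted 1, 1, 0 and 1 times in Control Sets 1 to 4 and 9, 5, 14 and 22 times in Notch3IC Sets 1 to 4, a pooled ratio of 17.99 (exact 95% interval 5.81 to 90.2, counting error only). Vipr1, a receptor for vasoactive intestinal peptide that raises cAMP, was counted 0, 3, 1 and 0 times in Control and 9, 7, 12 and 23 times in Notch3IC. Adora2a, a cAMP-raising adenosine receptor, was at 0 in all Control libraries and was counted 5, 0, 16 and 21 times in Notch3IC. Gucy2g, a membrane guanylyl cyclase, was counted 3, 2, 1 and 0 times in Control and 1, 7, 25 and 29 times in Notch3IC. Of these genes Prkg1 and Vipr1 had groups that did not overlap in counts, and Adora2a and Gucy2g overlapped. Among the 12430 genes tested, 7.08% had Notch3IC libraries higher throughout. Few Control counts were a condition of the choice, which favors separate groups, calls and large ratios. Nothing is read from them. The other 5 genes of that kind had pooled Control and Notch3IC counts of 2 and 40 (Gucy1a2), 4 and 35 (Rapgef4), 5 and 30 (Calml4), 1 and 17 (Adcy2), and 4 and 12 (Adora1). Single libraries carried much of these totals. Rapgef4 had 25 of its counts in Notch3IC Set 1. The largest Notch3IC counts were 21 (Gucy1a2), 16 (Calml4) and 11 (Adcy2) in Set 4, and 6 (Adora1) in Set 3.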
